A study of Nicotiana tabacum with 36 samples.

Results

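The earliest cold response of the tobacco cultivar Yanyan97 (YT) was read by comparing its libraries taken after 0.5 h at 4 °C with its libraries taken at 0 h, before the cold. The comparison takes every library that the sample labels give to Yanyan97 at these times: 3 at 0.5 h and 3 at 0 h, or 6 of the 36 libraries of the series, and all genes were tested. The series as a whole follows YT, described by the study as cold resistant, and Taiyan8 (TT), described as cold susceptible, at 0, 0.5, 1, 2, 4 and 8 h of 4 °C. RNA came from leaves of seedlings at the five-leaf stage, and the labels call each group biologically triplicated. Per the labels, all plants were raised on medium at 16 h light and 8 h dark, 22 °C by day and 20 °C by night and 65% humidity, whereas the methods of the study give warmer and moister settings. The 0 h plants of YT had no cold at all. No plants kept warm for the same 0.5 h were analysed here, so cold and 0.5 h on the daily clock cannot be told apart. In leaf tissue, fewer cells of a type and less RNA per cell cannot be told apart either. Leaf marker genes were not checked, because no table used here pairs their names with the gene IDs.

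Plants sense a drop in temperature within minutes, and an influx of calcium is among the first recorded events. Calcium-binding proteins and protein kinases then pass the signal on to transcription factors (TFs). The best known of these are the CBF proteins (C-repeat binding factors, also DREB1) of the AP2-EREBP family, which bind the CRT/DRE element in promoters of cold-regulated genes and whose own genes in Arabidopsis are switched on early in the cold. WRKY, MYB, C2H2 zinc finger and other AP2-EREBP factors are further families with members that respond early to cold and other stresses.

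Nearly all called changes at 0.5 h were rises. Of 23740 genes tested, 346 were called up at 0.5 h (1.46% of all tested) and 26 were called down (0.11%). A call means a log2 fold change above 1 in size with a Benjamini-Hochberg (BH) adjusted p under 0.05 in edgeR's quasi-likelihood test on the counts, fitted to all 36 libraries. The called rises had a median log2 fold change of 2.10, or 4.29-fold. It was 2.09 with the 8 genes that had 0 counts at 0 h set at the lower bound of their change. Of the 346, 53.2% rose by more than 2 on the log2 scale and 25.7% by more than 3. The called falls were smaller, with a median of -1.67, and 7 of the 26 lay below -2. Across all tested genes the median was 0.0021. A median near 0 follows from the scaling of the libraries before the fit and is no check of that scaling. The 3 libraries of 0.5 h lay entirely above those of 0 h for 345 of the 346 rises and entirely below them for all 26 falls. Such separation without a test was common, at 8.88% of all genes with 0.5 h higher and 8.33% with 0.5 h lower. With the adjusted p alone and no minimum fold, 401 genes were higher (1.69%) and 62 lower (0.261%), and 10.8% of all genes had an unadjusted p under 0.05.

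Depth did not separate the groups. The 6 libraries held between 22837809 and 25959408 counts on genes, within the 15484160 to 26691552 of the series. Replicate 3 of 0.5 h stood somewhat apart from the other 2: its Pearson's r with them, across genes on log2 CPM, was 0.949 and 0.955, against 0.972 between replicates 1 and 2. The median SD of log2 CPM over genes was 0.304 at 0.5 h and 0.205 at 0 h. Replicate 3 held the highest 0.5 h value of 211 of the 346 rises. Without it, 247 genes were called up and 22 down. The number called up was 211 without 0 h replicate 1 and 204 without 0 h replicate 2. The number called down was 17 without 0 h replicate 2 and 17 without 0.5 h replicate 1. Called in each of the 6 fits that left out 1 library were 166 of the rises and 10 of the falls.

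**Figure D1:**
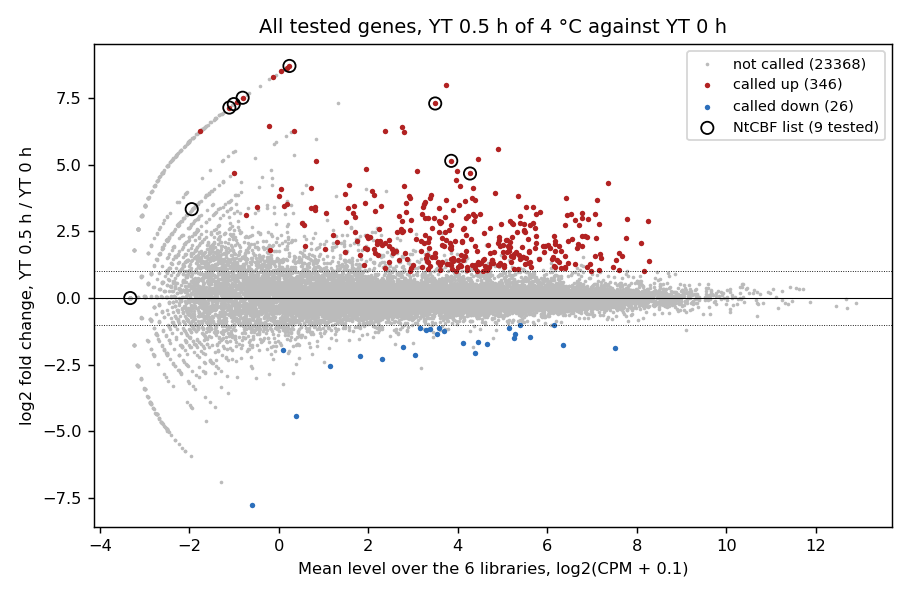
Each point is 1 of the 23740 tested genes, with its mean level over the 6 YT libraries as log2(CPM + 0.1) on the x axis and its fitted log2 fold change, YT 0.5 h over YT 0 h, on the y axis. Dotted lines mark log2 fold changes of 1 and -1. The 346 rises, with means of at most 531.5 CPM at 0.5 h and 187 CPM at 0 h, outnumber the 26 falls and do not reach the highest levels of all tested genes, and the circled NtCBF genes include several of the highest points, those at the left edge of the plot resting on few counts.

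The NtCBF genes, the tobacco CBF homologues listed by the study, were among the steepest rises. Levels are given as CPM, the counts of a gene scaled to a common library size with TMM factors. NtCBF3 (Nitab4.5_0005990g0020, Nitab-v4.5 chromosome 4, 55165949 to 55166602, 1 exon) had 21.2, 16.9 and 28.4 CPM at 0.5 h, against 0.0763, 0.317 and 0 CPM at 0 h. Its transcript was near absent from all 3 libraries of 0 h and present in all 3 of 0.5 h, with a log2 fold change of 7.31 ± 1.12 (SE, BH-adjusted p = 0.00015).

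NtCBF2 (Nitab4.5_0001083g0010, chromosome 4, 55301495 to 55302151, 1 exon) had 24.04, 22.995 and 36.6 CPM at 0.5 h, against 0.381, 1.76 and 0.151 CPM at 0 h. The groups did not overlap, and 0 h replicate 2 was the highest of its group. The log2 fold change was 5.15 ± 0.85 (SE, BH-adjusted p = 0.00031). NtCBF2 is the member that the study measured by RT-qPCR and disrupted with Cas9, so the sequences designed for it are shown here. Whether they also match other copies was not checked. The capitals mark the motif that Cas9 needs beside its target, after 20 bases of target.
NtCBF2 Cas9 target site: ataaccccaagaagcgggcaGGG
NtCBF2 RT-qPCR forward primer: agtagctcgggctaaatgcaa
NtCBF2 RT-qPCR reverse primer: acttgcgcgcacttatttca

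NtCBF5 (Nitab4.5_0002394g0010, chromosome 6, 99170480 to 99171139, 1 exon) had 33.1, 28.9 and 48.8 CPM at 0.5 h, against 0.534, 2.46 and 1.28 CPM at 0 h, a log2 fold change of 4.68 ± 0.76 (SE, BH-adjusted p = 0.00028). In all 3 genes 0.5 h replicate 3 was the highest library and replicate 2 the lowest. Per length, on the deposited TPM scale, NtCBF5 averaged 68.2, NtCBF2 53.5 and NtCBF3 41.6 TPM at 0.5 h, against 2.81, 1.64 and 0.283 TPM at 0 h.

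A further 3 NtCBF genes were called up at levels of a few CPM or less, each with 0 counts in all 3 libraries of 0 h. Their folds are therefore bounds against 3 counts per library. NtCBF11/NtCBF12 (Nitab4.5_0005990g0030, chromosome 4) had 2.76, 2.63 and 1.07 CPM at 0.5 h, at least 19.4-fold higher (adjusted p = 0.0337). NtCBF10 (Nitab4.5_0002419g0050, chromosome 6) had 1.17, 0.496 and 1.15 CPM at 0.5 h, at least 8.46-fold higher (adjusted p = 0.00934). NtCBF9/NtCBF13/NtCBF14 (Nitab4.5_0002419g0020, chromosome 6) had 0.378, 0.534 and 1.27 CPM at 0.5 h, at least 6.55-fold higher (adjusted p = 0.0046). The call of Nitab4.5_0005990g0030 was lost in 5 of the 6 fits that left out 1 library (adjusted p up to 0.159), all but the one without 0.5 h replicate 3. That of Nitab4.5_0002419g0050 was lost without 0 h replicate 1 and without 0 h replicate 2 (up to 0.0608). Several protein accessions of the study map to a single gene model in 2 of them.

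Of the 15 gene IDs in the NtCBF list, 9 were in the count table, all of them tested. Of these 9, 6 were called up, beside 1.46% of all tested genes. NtCBF21 (Nitab4.5_0001200g0100) had 1.36, 0.267 and 0.755 CPM at 0.5 h and 0 counts in all libraries of 0 h, at least 7.15-fold higher, but did not pass (adjusted p = 0.378). NtCBF19 (Nitab4.5_0000140g0200) had 23 counts over the 3 libraries of 0.5 h and 2 counts over those of 0 h, a ratio of 11.99 with a 95% counting interval of 2.96 to 105 (adjusted p = 0.599). NtCBF17 (Nitab4.5_0001834g0020) had 0 counts in all 6 YT libraries. The other 6 IDs were not analysed here. Without 0 h replicate 1, and likewise without 0 h replicate 2, 4 of the members were called up.

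On chromosome 4, NtCBF11/NtCBF12 and NtCBF3 lie on 1 scaffold with Nitab4.5_0005990g0050 between them (55087587 to 55093057), a gene chosen for its place after its values were seen. It had 2.57, 1.87 and 1.71 CPM at 0.5 h and 0 counts in the 3 libraries of 0 h, at least 18.5-fold higher (adjusted p = 0.0193). Its call was lost without any 1 of the 0 h libraries (adjusted p up to 0.113). The sources used here do not annotate it. All 3 neighbours were thus called up. Tobacco is an allotetraploid whose paired copies can be nearly identical. Reads that match several places were not counted, so the level of any single copy is uncertain.

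The TFs that the study called at every cold time in YT or in TT together held 44 genes that were called up and 3 called down. Of the 47 TFs in the YT list, 30 were called up and 3 down, and of the 88 in the TT list, 39 and 1. The YT list was chosen by the study on these same libraries and is not independent evidence of direction. The TT list was chosen on TT libraries, with 1.46% of all tested genes called up in YT as its background. AP2-EREBP was the largest family, with 15 of 26 members called up. WRKY followed with 7 of 15, MYB and C2H2 with 5 of 14 and 5 of 6, and GRAS with 4 of 6. Without 0 h replicate 2 the GRAS count was 2, and without 0 h replicate 1 the MYB count was 3. Of the 7 bHLH genes in these lists 3 were called down, beside 0.11% of all tested genes, and all 3 are in the YT list.

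Outside the CBF list, the largest AP2-EREBP gains in CPM came from genes that were already transcribed at 0 h. Nitab4.5_0003219g0010 (chromosome 1) had 268, 334 and 568 CPM at 0.5 h, against 45.6, 48.7 and 54.4 CPM at 0 h, a log2 fold change of 2.98 ± 0.34 (SE, BH-adjusted p = 4.28e-06). Nitab4.5_0001992g0130 (chromosome 12) had 267, 299 and 499 CPM, against 78.2, 66.9 and 80.1 CPM at 0 h, a log2 fold change of 2.24 ± 0.32 (SE, BH-adjusted p = 4.93e-05). The 0 h libraries of both were tight and the 0.5 h ones were not, replicate 3 being the highest in each.

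Nitab4.5_0000516g0110 (chromosome 14) kept to the same order, at 157, 167 and 315 CPM at 0.5 h and 28.2, 27.4 and 27.1 CPM at 0 h, a log2 fold change of 2.95. Nitab4.5_0000600g0060 and Nitab4.5_0000600g0050 are a pair of neighbouring single-exon AP2-EREBP genes on chromosome 4, and their changes were close, at log2 fold changes of 2.83 and 2.78. At a high level with a smaller change, Nitab4.5_0000675g0010 (chromosome 16) had 231, 261 and 397 CPM at 0.5 h, against 96.8, 80.2 and 100.2 CPM at 0 h (log2 fold change 1.68). ERF3 (Nitab4.5_0001393g0040), whose Arabidopsis homologue is a repressor of the ethylene-response-factor group, had 85.4, 103 and 140 CPM against 41.8, 41.2 and 46.7 CPM at 0 h. Its log2 fold change of 1.34 ± 0.35 passed (SE, BH-adjusted p = 0.0316), but of the fits without 1 library it passed only without 0.5 h replicate 1 (adjusted p up to 0.188 in the others).

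WRKY factors bind the W-box and are best known from defence. Nitab4.5_0000047g0140 (chromosome 2) had 91.0, 130 and 90.2 CPM at 0.5 h, against 7.93, 5.88 and 18.97 CPM at 0 h, a log2 fold change of 3.25 ± 0.65 (SE, BH-adjusted p = 0.00308). Nitab4.5_0001226g0020 (chromosome 10) had 69.3, 93.1 and 62.6 CPM, against 5.99, 6.76 and 13.8 CPM at 0 h (log2 fold change 3.08). In both, 0 h replicate 3 was the highest of its group and 0.5 h replicate 2 the highest of its own.

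Of the other WRKY genes, Nitab4.5_0000223g0340 rose most, with 28.7, 47.3 and 37.6 CPM at 0.5 h, against 3.01, 1.06 and 2.45 CPM at 0 h (log2 fold change 4.13, adjusted p = 0.00112). Nitab4.5_0002944g0100 and Nitab4.5_0001159g0160 followed, with log2 fold changes of 3.63 and 2.32. Nitab4.5_0000046g0020 had the highest WRKY level of those named, at 243, 282 and 200 CPM against 98.9, 90.4 and 137.7 CPM at 0 h. Its rise was the smallest of those named, 1.15 ± 0.29 (SE, BH-adjusted p = 0.0278). That call was lost without 0 h replicate 1 or 2 and without 0.5 h replicate 1 or 2 (adjusted p up to 0.194). In the other direction, Nitab4.5_0000048g0080 had 7.22, 17.8 and 16.6 CPM at 0.5 h, against 26.7, 20.4 and 45.2 CPM at 0 h. It was not called by edgeR (log2 fold change -1.15, adjusted p = 0.0515), while DESeq2 called 1 of the 15 listed WRKY genes down. In TT the gene was called up (1.40), and the test of a difference between the cultivars, described below, called it (-2.55, adjusted p = 0.00379).

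Among the smaller families, the C2H2 zinc finger gene Nitab4.5_0000164g0180 (chromosome 12, 1 exon) had 190, 236 and 289 CPM at 0.5 h, against 23.1, 18.9 and 39.1 CPM at 0 h. Every 0.5 h library was several times above every 0 h library, with a log2 fold change of 3.14 ± 0.49 (SE, BH-adjusted p = 0.00019). The MYB genes Nitab4.5_0006893g0010 and Nitab4.5_0000068g0400 rose by 3.40 and 2.89 on the log2 scale. The NAC gene Nitab4.5_0000519g0170 and the trihelix gene Nitab4.5_0000490g0020 rose by 4.11 and 3.44 at levels under 3 CPM. Tify genes include the JAZ repressors of jasmonate signalling, and 1 of the 3 listed was called up, Nitab4.5_0000343g0360 (log2 fold change 1.42). Its call was lost without any 1 of the 0 h libraries or 0.5 h replicate 3 (adjusted p up to 0.136), and those of Nitab4.5_0000068g0400 and Nitab4.5_0000519g0170 without 0 h replicate 1 (0.0698 and 0.0704).

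**Figure D2:**
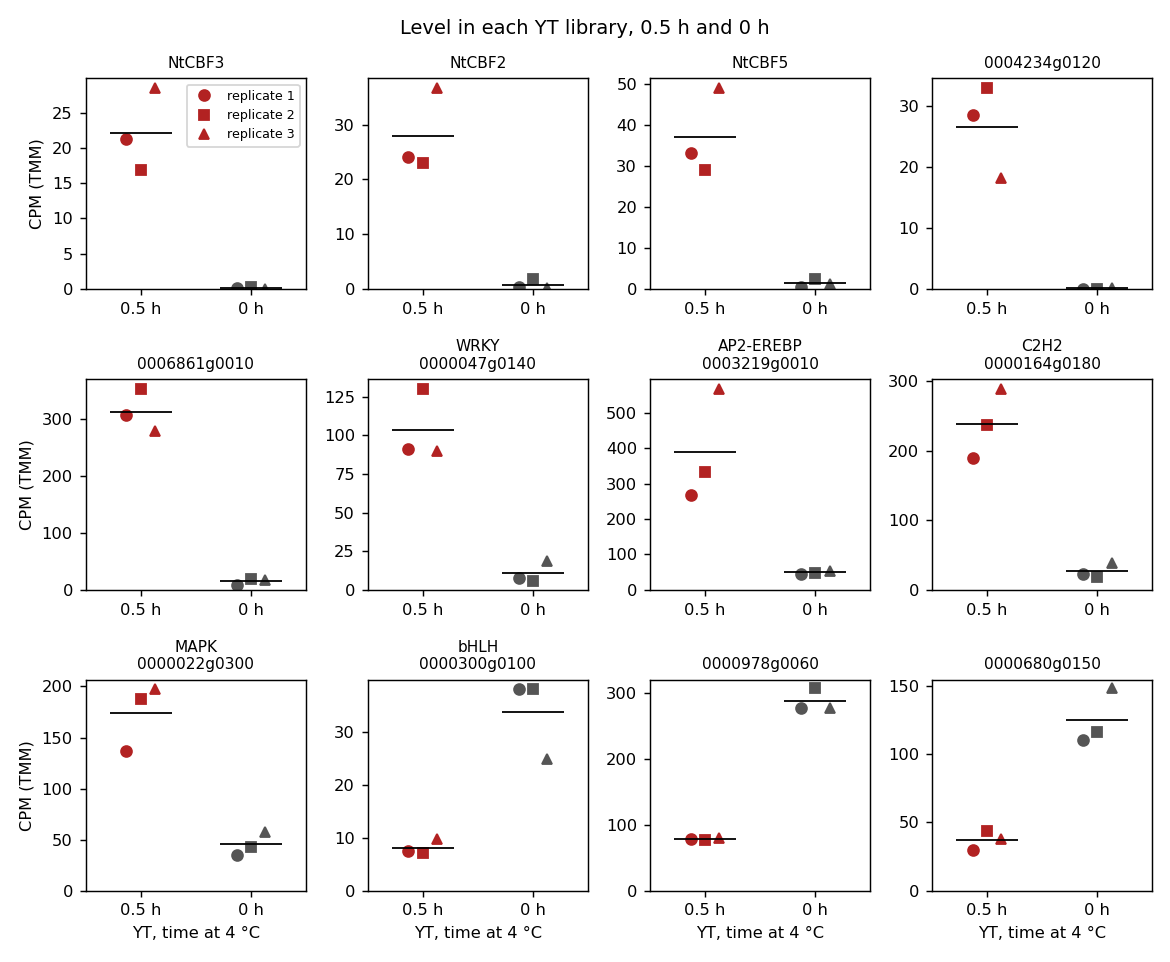
Each panel shows 1 gene, with its level in TMM-scaled CPM on a linear y axis from 0 and the YT libraries of 0.5 h (red) and 0 h (grey) side by side. Symbols stand for replicates 1 to 3 and the line is the mean of 3. The 9 rises and the 3 falls in the last panels separate the groups in every case, for example 268 to 568 CPM against 45.6 to 54.4 CPM in Nitab4.5_0003219g0010.

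GRAS factors include regulators of light and stress responses, and PAT1 takes part in phytochrome A signalling in Arabidopsis. A pair of genes described as PAT1 was called up. Nitab4.5_0000092g0120 (chromosome 21) had 31.8, 42.7 and 47.2 CPM at 0.5 h, against 6.52, 6.48 and 9.13 CPM at 0 h (log2 fold change 2.46 ± 0.48, SE, BH-adjusted p = 0.00248). Nitab4.5_0000749g0090 (chromosome 8) had 40.3, 50.8 and 73.1 CPM, against 15.1, 15.6 and 17.7 CPM at 0 h (log2 fold change 1.76 ± 0.42, SE, BH-adjusted p = 0.0169). The call of Nitab4.5_0000749g0090 was lost without any 1 of the 0 h libraries or 0.5 h replicate 3 (adjusted p up to 0.12). Another GRAS gene of the pink hub list, Nitab4.5_0000143g0040, was not called. It had 59.6, 81.0 and 97.6 CPM at 0.5 h and 47.1, 35.9 and 61.4 CPM at 0 h, and the lowest library of 0.5 h lay below the highest of 0 h.

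Protein kinases pass signals on by phosphorylation. Of 79 kinases that the study called throughout the cold in YT or in TT, 16 were called up, beside 1.46% of all tested genes. The count was 9 without 0 h replicate 1, 7 without 0 h replicate 2 and 10 without 0.5 h replicate 2. In the YT list, chosen on these libraries, the count was 13 of 19, with a median log2 fold change of 1.39. In the TT list it was 15 of 78, with a median of 0.70. The YT count fell to 6 without 0 h replicate 1, 5 without 0 h replicate 2, 7 without 0.5 h replicate 2 and 8 without 0.5 h replicate 3. The TT count was 8 without 0 h replicate 1, 7 without 0 h replicate 2 and 9 without 0.5 h replicate 2.

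The steepest kinase was Nitab4.5_0000365g0130, of the Crinkly 4 like family of receptor kinases, with 49.3, 66.7 and 58.5 CPM at 0.5 h, against 0.992, 1.87 and 0.717 CPM at 0 h. Its log2 fold change of 5.59 ± 0.89 (SE, BH-adjusted p = 0.00023) put it among the 10 largest rises of all genes with at least 10 CPM. The MAP kinase Nitab4.5_0000022g0300, of the family that relays stress signals, had 137, 187 and 198 CPM at 0.5 h, against 35.4, 43.0 and 57.8 CPM at 0 h (log2 fold change 1.94 ± 0.30, SE, BH-adjusted p = 0.00016). SnRK kinases, relatives of the energy and abscisic acid kinases, were called up in 4 of 4, with log2 fold changes between 1.10 and 1.76. The count was 2 of 4 without 0 h replicate 2 and 2 of 4 without 0.5 h replicate 3. All 4 are in the YT list, which the study chose on these libraries, so the count is not independent evidence. Of the 6 calcium-dependent protein kinases, with log2 fold changes of 0.22 to 0.90, and the 10 DUF26 receptor kinases, edgeR's quasi-likelihood test called 0. At an unadjusted p under 0.05, 3 and 2 of them were higher and 0 lower, and DESeq2 called 0 of either family. Over all tested genes 1.46% were called up and 10.8% had an unadjusted p under 0.05, so 0 calls in so few genes say nothing particular about these families. The 3 of 6 lay above the 10.8%, in very few genes. The test of a difference between the cultivars, described below, called 5 of the 6 and 7 of the 10, beside 1.57% of all tested genes. The study listed these kinases for calls throughout the cold in YT or TT, so these counts are not independent evidence.

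The pink hub list holds the 50 most connected genes of a co-expression module that the study built on these samples, so its direction is not independent evidence. At 0.5 h 34 of the 50 were called up, with a median log2 fold change of 1.85, and all 50 lay above 0. Over all tested genes 1.46% were called up and 11946 of 23740 lay above 0. Apart from TFs, its members include calcium-binding proteins, a hormone catabolism enzyme, ubiquitin ligases of the RING and U-box type, and proteins named from defence studies.

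An EF-hand pair, whose fold binds calcium, rose together. Nitab4.5_0000207g0450 had 31.4, 35.5 and 42.1 CPM at 0.5 h, against 3.13, 5.74 and 3.40 CPM at 0 h (log2 fold change 3.15 ± 0.56, SE, BH-adjusted p = 0.00081). Nitab4.5_0004384g0050 had 19.9, 21.01 and 24.3 CPM, against 1.75, 2.18 and 2.26 CPM at 0 h (log2 fold change 3.39 ± 0.58, SE, BH-adjusted p = 0.00052). Both sit on chromosome 1, and each has a neighbour of similar size that was also called up, Nitab4.5_0000207g0410 (log2 fold change 3.08) and Nitab4.5_0004384g0060 (3.30). Reads that match more than 1 of these 4 models would not have been counted, so their separate levels are uncertain. The calcium pump of the list, Nitab4.5_0000224g0060, and its calcium-dependent kinase, Nitab4.5_0002649g0020, were not called, at log2 fold changes of 0.96 and 0.90 (adjusted p = 0.209 and 0.374).

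CYP707A enzymes inactivate abscisic acid in Arabidopsis by hydroxylation. The gene described as CYP707A1, Nitab4.5_0000532g0070 (chromosome 15), had 88.2, 96.5 and 65.0 CPM at 0.5 h, against 6.06, 8.59 and 8.75 CPM at 0 h, a log2 fold change of 3.41 ± 0.53 (SE, BH-adjusted p = 0.00018). A protein phosphatase 2C gene, Nitab4.5_0002017g0040, was among the tightest rises, at 111, 140 and 184 CPM against 18.9, 20.9 and 25.6 CPM at 0 h (log2 fold change 2.74 ± 0.29, SE, BH-adjusted p = 1.5e-06). Some members of that phosphatase family act as brakes on stress signalling.

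Other hub genes came in pairs with 1 description. The NUDT17 nudix hydrolases, which cleave nucleotide derivatives, were Nitab4.5_0002046g0140 and Nitab4.5_0002450g0150, with log2 fold changes of 2.83 and 2.51. The COBL7 genes, named for a cell-surface COBRA-like protein, were Nitab4.5_0000616g0070 and Nitab4.5_0000629g0010, with 2.16 and 1.94. Of the pair described as methyltransferases, Nitab4.5_0000047g0160 was called up (1.58, adjusted p = 0.00472) and Nitab4.5_0001226g0060 was not (0.89, adjusted p = 0.198), though its 3 libraries of 0.5 h also lay above those of 0 h. The difference within this pair was not tested.

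The pair described as similar to AT5G12010, a protein of unknown function, differed in level. Nitab4.5_0006861g0010 (chromosome 10, 1 exon) had 309, 353 and 279 CPM at 0.5 h, against 9.15, 19.6 and 18.1 CPM at 0 h, a log2 fold change of 4.33 ± 0.67 (SE, BH-adjusted p = 0.00018). Nitab4.5_0002824g0030 (chromosome 21, 1 exon) had 14.6, 13.3 and 11.6 CPM, against 0, 0.141 and 0.302 CPM at 0 h, a log2 fold change of 6.43 ± 1.05 (SE, BH-adjusted p = 0.00031). The more abundant copy gained the most CPM and the scarcer one the larger fold.

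Of the brown hub list, 50 genes of another module, edgeR's quasi-likelihood test called 0 in either direction. At an unadjusted p under 0.05 there was 1 gene, and DESeq2 called 0. Over all tested genes 1.57% were called and 10.8% had an unadjusted p under 0.05, so 0 calls among 50 genes is close to the share called. The list had a median log2 fold change of 0.0052 and 25 of 50 above 0. Several members were next to absent in YT and could hardly be called, such as Nitab4.5_0000051g0340 and Nitab4.5_0007178g0020, with 0 CPM in all 6 libraries. The 8 qRT-PCR genes of the study that were not called include 7 of this list, all with overlapping groups. Of the 13 qRT-PCR genes in all, 5 were called up: NtCBF2, PAT1 (Nitab4.5_0000092g0120), COBL7 (Nitab4.5_0000616g0070), ERF3 and Nitab4.5_0002105g0060. The study labels Nitab4.5_0002105g0060 as C2H2, whereas its descriptions name a protein-methionine-S-oxide reductase and an unknown protein similar to AT2G17705.1. That gene had 34.7, 39.6 and 47.7 CPM at 0.5 h, against 9.50, 8.98 and 12.6 CPM at 0 h. Of the 14 TFs and 6 kinases that the study called between the cultivars at all times, edgeR called 0. At an unadjusted p under 0.05 there were 1 TF and 2 kinases, and DESeq2 called 1 of the kinases.

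**Figure D3:**
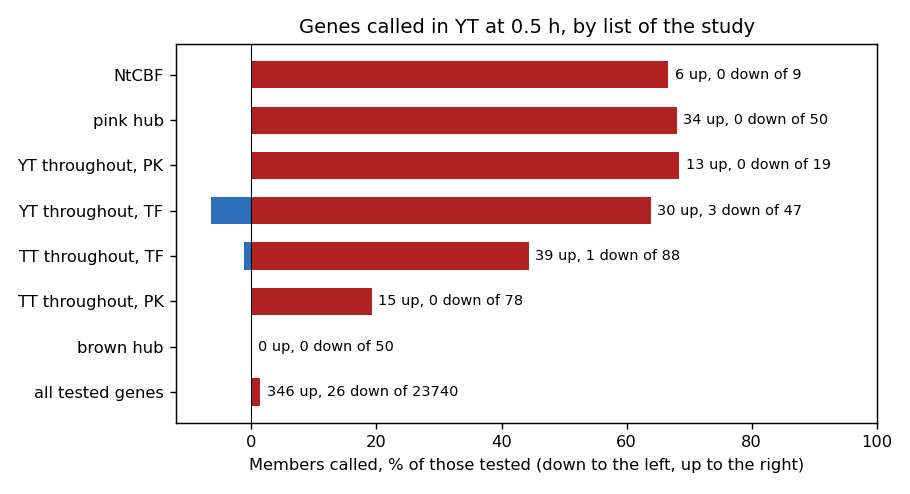
Bars give the percentage of tested members of each list of the study that were called in YT at 0.5 h against 0 h, up to the right and down to the left, with counts beside them. The lowest bar is all 23740 tested genes. Among the pink hub genes 34 of 50 were called up and among the brown hub genes 0 of 50, against 1.46% of all tested genes.

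Several of the largest rises have no annotation in the sources used here. Nitab4.5_0004234g0120 (chromosome 8, 105452123 to 105452794, 1 exon) had 28.4, 32.8 and 18.1 CPM at 0.5 h, against 0, 0.0704 and 0.226 CPM at 0 h. It was almost silent at 0 h, and its log2 fold change of 7.99 ± 1.39 (SE, BH-adjusted p = 0.00064) was the largest among called genes with at least 10 CPM. Nitab4.5_0001237g0010 (chromosome 7) had 32.96, 45.8 and 48.4 CPM, against 0.610, 0.845 and 1.96 CPM at 0 h (log2 fold change 5.21).

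Nitab4.5_0002124g0010 (chromosome 4, 1 exon) was the most even of them, with 29.8, 28.4 and 30.7 CPM at 0.5 h, against 0.763, 1.06 and 2.26 CPM at 0 h (log2 fold change 4.44 ± 0.39, SE, BH-adjusted p = 4.86e-08). By gain in CPM, Nitab4.5_0001468g0070 (chromosome 13) led, with 353, 422 and 819 CPM at 0.5 h, against 65.2, 70.7 and 79.5 CPM at 0 h (log2 fold change 2.89). Per length, Nitab4.5_0002992g0090 was the most abundant of the named rises, at a mean of 946 TPM at 0.5 h against 392 TPM at 0 h.

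The called rises had fewer exons and a shorter exonic length at the median than all tested genes. A single exon was annotated for 158 of 346 rises (45.7%), against 5 of 26 falls (19.2%) and 3014 of all 23740 tested genes (12.7%). The median number of exons was 2 in the rises and 4 in all tested genes. The median exonic length was 955.5 bases in the rises, 1011 in the falls and 1137 in all tested genes. No test was made of these shares. Some rises were neighbours: 17 pairs of adjacent tested genes were both called up, with 31 genes among them. In 1 such pair the spans of the models, introns included, overlap by 3102 bases, beside exonic lengths of 414 and 354 bases. Counting ignored strand, but whether the exons of this pair overlap was not checked. On chromosome 12, Nitab4.5_0000786g0190, Nitab4.5_0000786g0240 and Nitab4.5_0000786g0210 follow each other with exonic lengths of 936, 963 and 960 bases. The last of them had 229, 233 and 307 CPM at 0.5 h, against 13.8, 28.2 and 17.7 CPM at 0 h (log2 fold change 3.69). Reads that match several near-identical copies would not have been counted there either.

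Few genes fell, and most of them are not annotated. The fall with the highest level was Nitab4.5_0000978g0060 (chromosome 15, 4108151 to 4110135, 2 exons), which had 78.3, 77.3 and 80.3 CPM at 0.5 h, against 278, 308 and 278 CPM at 0 h. Replicates were close on both sides, with a log2 fold change of -1.87 ± 0.33 (SE, BH-adjusted p = 0.00068). Nitab4.5_0000680g0150 (chromosome 2, 1 exon) had 29.6, 43.4 and 37.96 CPM, against 110.3, 116.5 and 148 CPM at 0 h (log2 fold change -1.76 ± 0.40, SE, BH-adjusted p = 0.0122). The call of Nitab4.5_0000680g0150 was lost without 0 h replicate 3, 0.5 h replicate 1 or 0.5 h replicate 3 (adjusted p up to 0.0769).

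The 3 bHLH factors that fell belong to a family with roles from light signalling to iron use. Nitab4.5_0000300g0100 (chromosome 22) had 7.49, 7.09 and 9.74 CPM at 0.5 h, against 38.1, 38.2 and 24.8 CPM at 0 h (log2 fold change -2.06 ± 0.42, SE, BH-adjusted p = 0.00432). Nitab4.5_0002656g0050 (chromosome 8) had 12.2, 14.3 and 8.39 CPM, against 39.1, 40.7 and 34.4 CPM at 0 h (log2 fold change -1.71). Nitab4.5_0000287g0160 (chromosome 12) had 1.40, 2.56 and 0.994 CPM, against 9.99, 8.24 and 5.92 CPM at 0 h (log2 fold change -2.28). All 3 stood apart between the times with no overlap. They are in the YT list, which the study chose on these libraries, so their falls are not independent evidence.

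Of the other falls, Nitab4.5_0000712g0030, Nitab4.5_0000204g0120, Nitab4.5_0000257g0060 and Nitab4.5_0000613g0170 had log2 fold changes between -1.69 and -1.45, each with 0.5 h libraries below every 0 h library. The steepest, Nitab4.5_0003533g0030, was a scarce transcript, with 0 counts in the 3 libraries of 0.5 h and 1.07, 1.51 and 0.754 CPM in those of 0 h (adjusted p = 0.0103). The call of Nitab4.5_0003533g0030 was lost without 0.5 h replicate 2 or 3 (adjusted p up to 0.056), and that of Nitab4.5_0000613g0170 without 0 h replicate 2 (0.0504).

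TT was given the same 0.5 h of cold, and its libraries share nothing with those of YT. In TT 1217 genes were called up at 0.5 h (5.13% of those tested) and 278 down (1.17%). Of the 346 rises in YT, 302 were also called up in TT, which is 87.3% of the YT rises and 24.8% of the TT rises. Of the 26 falls, 14 were shared, or 53.8% of the YT falls and 5.04% of the TT falls. The shared rises numbered 186 without YT 0 h replicate 1 and 188 without YT 0 h replicate 2. The median log2 fold change of the 346 genes was 2.10 in YT and 3.33 in TT, and for 277 of them (80.1%) the change was larger in TT. The genes were chosen for passing in YT, so the 2 medians are given as a description.

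The difference in response was tested by the interaction, the response of YT minus that of TT, which called 372 of all genes (1.57%). Of the 346 rises in YT, 56 were called (16.2%), 51 with a smaller rise in YT and 5 with a larger one. The count over all genes moved with single libraries more than any other in the comparison. It was 240, 226 and 91 without YT 0 h replicate 1, 2 and 3 in turn, and 646 and 141 without YT 0.5 h replicates 1 and 3. Without TT 0 h replicates 1, 2 and 3 it was 109, 155 and 769, and without TT 0.5 h replicates 2 and 3 it was 131 and 83.

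Neither NtCBF2, NtCBF3 nor NtCBF5 passed the interaction test. NtCBF5 rose by 4.68 in YT and 8.68 in TT, a difference of -4.003 ± 1.15 (SE, BH-adjusted p = 0.0585). NtCBF2 rose by 5.15 in YT and 7.77 in TT, a difference of -2.61 ± 1.23 (SE, BH-adjusted p = 0.208), and NtCBF3 by 7.31 and 7.87 (adjusted p = 0.904). In level, NtCBF2 had 24.04, 22.995 and 36.6 CPM in YT at 0.5 h, against 60.9, 179 and 186 CPM in TT at 0.5 h. Nitab4.5_0001083g0010 thus showed a wide spread in TT, its replicate 1 being the lowest there. All libraries of YT lay below those of TT at this time. The RT-qPCR of the study, made on a different batch of samples, gave the opposite order, with the gene more expressed in YT at this time. From that order the study proposes that YT may activate cold responses earlier. Why the orders differ was not tested.

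The smaller rise in YT passed in several signalling genes. Nitab4.5_0000047g0140, the WRKY gene, rose by 3.25 in YT and 6.92 in TT. Its levels were 91.0, 130 and 90.2 CPM in YT and 220, 308 and 356 CPM in TT at 0.5 h, against 7.93, 5.88 and 18.97 CPM in YT and 1.74, 2.01 and 3.49 CPM in TT at 0 h. YT was thus lower than TT at 0.5 h and higher at 0 h. The MAP kinase Nitab4.5_0000022g0300 rose by 1.94 in YT and 4.26 in TT, with 137, 187 and 198 CPM in YT and 391, 618 and 725 CPM in TT at 0.5 h. Its 0 h level was 45.4 CPM on average in YT and 30.1 CPM in TT. CYP707A1 (Nitab4.5_0000532g0070) rose by 3.41 in YT and 6.43 in TT, a difference of -3.02 (adjusted p = 0.0285). In the 12 fits that left out 1 library of YT or TT, the difference passed in 12 for Nitab4.5_0000022g0300, 6 for Nitab4.5_0000047g0140 and 5 for Nitab4.5_0000532g0070.

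In the other direction, 5 rises were larger in YT, and TT was called up in none of the 5. They were looked up after their values were seen, and none is annotated. Nitab4.5_0001268g0020 had 44.8, 34.1 and 49.8 CPM in YT at 0.5 h, against 14.2, 13.1 and 11.3 CPM in YT at 0 h, while its log2 fold change in TT was -0.43 (difference 2.16 ± 0.41, SE, BH-adjusted p = 0.00528). Nitab4.5_0001367g0030 had 97.0, 85.7 and 141 CPM against 33.7, 36.9 and 49.9 CPM at 0 h, with -0.55 in TT (difference 1.98, adjusted p = 0.00703). These 2 passed in all 17 alternatives tried. Nitab4.5_0000010g0250, which rose in YT and fell in TT (log2 fold changes 3.87 and -2.97), passed in 15 of the 17, while its own rise in YT missed the threshold in 4 of the 6 fits without 1 YT library.

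Among the falls the interaction called 2 genes. Nitab4.5_0000978g0060 fell by 1.87 in YT and had a log2 fold change of 0.40 in TT (adjusted p = 0.422). Its levels were 78.3, 77.3 and 80.3 CPM in YT and 166, 169 and 108 CPM in TT at 0.5 h, against 278, 308 and 278 CPM in YT and 103, 109 and 124 CPM in TT at 0 h. The libraries of YT thus lay below those of TT at 0.5 h and above them at 0 h.

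**Figure D4:**
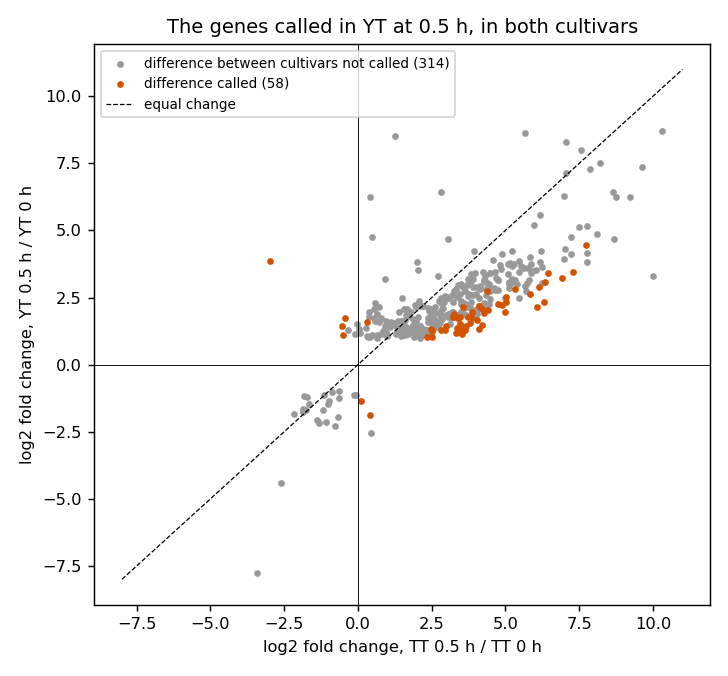
Each point is 1 of the 372 genes called in YT at 0.5 h, with its log2 fold change in TT on the x axis and in YT on the y axis. Orange marks the 58 genes whose difference between the cultivars was called and the dashed line is an equal change. Most rises lie below the line, 277 of 346 with the larger change in TT, and 5 orange points of rises lie above it.

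Later times of YT are set beside the first for the same genes. They share the 0 h libraries, so only their own values are given. Over 0.5, 1, 2, 4 and 8 h in that order, the 346 rises had median log2 fold changes against 0 h of 2.10, 2.58, 1.69, 2.67 and 2.48. The number above 0 was 346, 346, 327, 338 and 324. By mean CPM, the highest of the 6 times in YT was 0.5 h for 46 of the genes, and 88, 22, 119 and 71 of them had it at the 4 later times in order. As shares of the 346 these were 13.3, 25.4, 6.36, 34.4 and 20.5%, against 15.3, 12.9, 15.6, 14.6 and 23.2% of all tested genes. At 0 h it was 18.4% of all tested genes and 0 of the rises, which were chosen as higher at 0.5 h. In TT the 346 rises had their highest mean at 0.5 h in 182 cases and at 0 h in 5. The later times in TT held 37, 41, 19 and 62 in order. The shares over all tested genes were not computed for TT, so these counts have no background. The 26 falls had medians of -1.67, -1.56, -1.29, -1.47 and -1.41 in the same order of times.

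NtCBF2 averaged 0.764, 27.9, 45.5, 21.8, 29.3 and 30.9 CPM in YT at 0, 0.5, 1, 2, 4 and 8 h. In YT its highest mean thus came at 1 h, whereas in TT the mean of Nitab4.5_0001083g0010 was 142 CPM at 0.5 h and 95.4 CPM at 1 h. NtCBF3 (Nitab4.5_0005990g0020) averaged 22.2 CPM at 0.5 h, 24.6 CPM at 1 h and 6.08 CPM at 2 h in YT. The unannotated Nitab4.5_0004234g0120 was the most transient of those described, at 26.5 and 25.98 CPM at 0.5 and 1 h and 0.530 CPM at 2 h.

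The MAP kinase Nitab4.5_0000022g0300 had a higher mean in YT at each later time than at 0.5 h, with 45.4, 174, 432, 445.7, 758 and 645 CPM over the 6 times. Means at 4 h rest on unequal libraries: for the WRKY gene Nitab4.5_0000047g0140, YT 4 h replicate 1 had 840 CPM and replicates 2 and 3 had 88.3 and 165 CPM. Nitab4.5_0000978g0060 remained below its 0 h level, with YT means of 288, 78.6, 98.8, 115.6, 90.5 and 67.9 CPM.

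**Figure D5:**
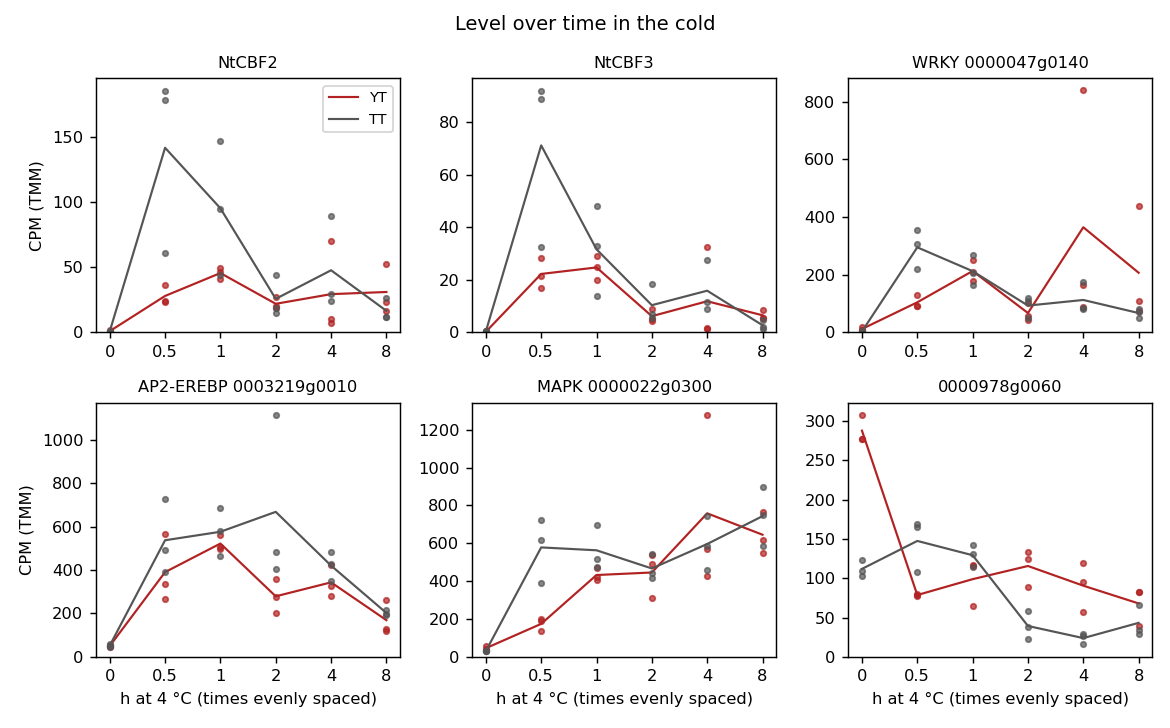
Each panel shows 1 gene over 0, 0.5, 1, 2, 4 and 8 h at 4 °C (evenly spaced on the x axis), with TMM-scaled CPM on a linear y axis. Small points are libraries and lines join the means of 3 in YT (red) and TT (grey). NtCBF2 reaches a mean of 27.9 CPM in YT at 0.5 h and 142 CPM in TT, and Nitab4.5_0000978g0060 starts at 288 CPM in YT and 112 CPM in TT before it drops in YT at 0.5 h.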

How the data were processed

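Counts and TPM of 36 leaf libraries were read from the deposited tables, which hold 35519 genes on 24 chromosomes of the Nitab-v4.5 assembly. The authors trimmed the reads with Trim Galore 0.6.4, mapped them with HISAT2 2.0.5, removed poorly mapped ones with SAMtools 1.9 and ran featureCounts 1.6.4 without regard to strand. The deposited counts are not normalized, and multi-mapping reads were left out. For the deposited TPM, scaled for length and depth, the authors used StringTie 1.3.4d. In the TPM table a column name ending in 5 was read as 0.5 h, and in 36 of 36 columns the values were closest to the counts of the same sample. There were 0 value columns of no sample.

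Genes were filtered with filterByExpr (23740 kept) and scaled with TMM. The 12 groups were fitted in edgeR 4.0.16 (R 4.3.3) with the quasi-likelihood F test, two-sided; the methods of the study name DESeq2, which was run as an alternative (1.42.0), as were its size factors, no filter, fits of fewer libraries, the replicate number as a block, each library left out, and limma 3.58.1 on log2(TPM + 1) and log2(TPM + 0.1). SEs were derived from the F statistic. A library with 3 counts or fewer was taken as at the floor; counting intervals (95%) cover counting error only. Scripts were tested on simulated data. Figures were drawn with matplotlib 3.10.9.

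Genes were named by a rule: called genes with no overlap between groups and a mean of at least 10 CPM (the 10 largest rises by fold, 10 by CPM and 10 falls), the NtCBF, hub TF and qRT-PCR genes, pairs of pink hub genes with 1 description, and called members of the YT TF and kinase lists; others are named beside their list or pair. The comparison, lists and rule were chosen with earlier results of these data known. Replicates are those of the labels, 3 libraries a group. In the main fit p-values rest on the spread within groups, estimated jointly over all 12 groups and not from the compared groups alone.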

Additional observations from a re-analysis of the deposited data

Results flagged for a closer look

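Among the genes chosen by the naming rule, 17 had a response to 0.5 h of cold that differed between the cultivars by the interaction test (edgeR, adjusted p under 0.05 and a difference above 1 on the log2 scale), and in these 17 the value in YT was the lower one. The difference, response of YT minus response of TT, was -3.68 in the WRKY gene Nitab4.5_0000047g0140, -3.26 in the WRKY gene Nitab4.5_0001226g0020 and -2.36 in the WRKY gene Nitab4.5_0000046g0020. It was -3.30 in the unannotated Nitab4.5_0002124g0010. The NUDT17 pair Nitab4.5_0002046g0140 and Nitab4.5_0002450g0150 differed by -2.48 and -2.52, and the GRAS gene Nitab4.5_0000143g0040 by -1.63.

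Genes of the YT kinase list made up 8 of the 17. The difference was -2.32 in the MAP kinase Nitab4.5_0000022g0300, -2.27 in Nitab4.5_0004981g0060 of the LRK10 like family, -1.96 in Nitab4.5_0000003g0890 (leucine rich repeat X) and -2.22 in Nitab4.5_0001651g0090 (S domain). It was -2.12 in Nitab4.5_0001536g0030 (CRPK1 like), -2.01 in Nitab4.5_0001981g0040 (receptor like cytoplasmic VII), and -1.53 and -1.66 in the SnRK genes Nitab4.5_0004880g0010 and Nitab4.5_0001234g0050. In the 2 falls, Nitab4.5_0000978g0060 and Nitab4.5_0002772g0010, it was -2.27 and -1.43.

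Of these, Nitab4.5_0002124g0010, Nitab4.5_0002450g0150, Nitab4.5_0000022g0300, Nitab4.5_0001651g0090, Nitab4.5_0000046g0020 and Nitab4.5_0000978g0060 passed in all 17 alternatives, including each of the 12 fits without 1 library. Nitab4.5_0002772g0010 passed in 7 of 17, and in 2 of the 12 fits without 1 library.

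Other genes described above, outside the rule, also passed. The difference was -3.02 in CYP707A1 (Nitab4.5_0000532g0070), -1.62 in the phosphatase gene Nitab4.5_0002017g0040, -2.79 in the calcium-dependent kinase Nitab4.5_0002649g0020 and -3.17 in the calcium pump Nitab4.5_0000224g0060. It was -2.55 in the WRKY gene Nitab4.5_0000048g0080. It was 2.16 in Nitab4.5_0001268g0020, 1.98 in Nitab4.5_0001367g0030 and 6.83 in Nitab4.5_0000010g0250, whose responses were larger in YT.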

How the results depend on the processing

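No result changed direction in the alternatives tried. The number of genes called up was 475 by DESeq2 (all 346 among them), 398 with the 6 libraries alone, 285 with the 18 YT libraries and 321 by limma on log2(TPM + 1), and 204 to 358 with 1 library left out, the lowest without YT 0 h replicate 2. The number called down was 42 by DESeq2 (24 of the 26 among them), 42 with the 6 libraries alone, 62 with no minimum fold, and 17 to 26 with 1 library left out. The interaction called 798 genes by DESeq2 and 710 with the 12 libraries of 0 and 0.5 h, and 83 to 769 with 1 library left out. Rises shared with TT numbered 186 to 312, YT list kinases called up 5 to 12 and TT list kinases 7 to 15, each with 1 library left out. With the replicate number as a block, 341 genes were called up and 24 down, of which 334 and 23 were called without it. The numbers did not pair the libraries: deviations of the same-numbered libraries at 0.5 and 0 h had r of -0.0298, -0.119 and 0.0091 in YT, each below the best value with another number. Of the 79 named genes that were called, 17 missed the threshold without YT 0 h replicate 1 and 17 without replicate 2, 6 with the 18 YT libraries and 1 with the block, and 0 by DESeq2. With 3 libraries a group, the call of a single gene was often lost when 1 library was left out. Called in each of the 6 fits without 1 YT library were 166 of the 346 rises and 10 of the 26 falls. Leaving out a library also lowers power, so a lost call does not show that it rested on that library. Nitab4.5_0000038g0020, for example, lost its call in all 6 fits with log2 fold changes of 1.01 to 1.31.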
